A study of Homo sapiens with 16 samples.

Results

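The genes described here are 3 Notch receptors (NOTCH1, NOTCH2 and NOTCH3), 3 ligands (JAG1, JAG2 and DLL1) and 4 genes that Notch signalling is known to switch on (HES1, HES4, HEY1 and NRARP). They were found by symbol in the GENCODE annotation of hg38 among the 66023 genes of the count table. All 10 members were present and passed the filter on low counts in every comparison. RNA had been sequenced from 6 lines of SW480, a much used line of human colon adenocarcinoma cells. Parental cells (n = 2) were not modified. The line shScrambled (n = 2) carried a lentiviral shRNA of random sequence, shAjuba1 (n = 3) an shRNA against the coding region of Ajuba, and shAjuba2 (n = 3) an shRNA against its non-coding region. Ajuba OE (n = 3) carried a lentiviral construct in which a CMV promoter drives Ajuba with FLAG and HA tags, and Control (n = 3) carried that construct with the Ajuba sequence cut out. The transduced lines were kept under puromycin selection as stable lines, and Parental cells were not, so each comparison with Parental also compares transduction and selection. Each condition is 1 line, and the study speaks of the replicates of a line as technical, so the p-values measure only the spread between these samples, which may be technical. The comparisons ask how the Notch genes differ where the LIM domain protein Ajuba is knocked down (KD) or overexpressed (OE).

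Notch signalling passes between touching cells. A ligand of the Jagged or Delta type on one cell binds a Notch receptor on its neighbour, the receptor is cut by an ADAM protease and then by gamma-secretase, and the freed intracellular domain joins the DNA-binding protein RBPJ and a Mastermind coactivator in the nucleus to switch on genes of the HES and HEY families. In the intestine the pathway keeps crypt cells dividing and holds down the secretory fate, and HES1 is the repressor best known for this. NRARP is induced by the pathway and limits it by promoting loss of the intracellular domain. Transcript levels were measured here, not cleaved receptor or protein, and in bulk samples fewer cells that express a gene and less RNA of it per cell cannot be told apart.

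The promoters of 3 targets and of the ligand that differed most between lines are shown, to let the RBPJ core motif be read beside the values. Each runs 5′ to 3′ from 250 bases before to 50 bases after the start site in RefSeq on GRCh38.p14, with matches to TGGGAA, the RBPJ core, in capitals where they lie on the strand of the gene. HES1 is read from chr3:194135898-194136197 on the plus strand, HES4 from chr1:1000048-1000347, NRARP from chr9:137302222-137302521 and JAG1 from chr20:10673950-10674249, the last 3 on the minus strand.
HES1: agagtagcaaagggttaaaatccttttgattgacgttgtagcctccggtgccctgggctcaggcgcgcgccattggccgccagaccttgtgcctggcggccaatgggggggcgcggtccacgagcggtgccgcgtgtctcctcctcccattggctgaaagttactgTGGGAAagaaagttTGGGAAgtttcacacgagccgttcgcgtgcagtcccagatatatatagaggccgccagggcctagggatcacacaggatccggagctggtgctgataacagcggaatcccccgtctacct
HES4: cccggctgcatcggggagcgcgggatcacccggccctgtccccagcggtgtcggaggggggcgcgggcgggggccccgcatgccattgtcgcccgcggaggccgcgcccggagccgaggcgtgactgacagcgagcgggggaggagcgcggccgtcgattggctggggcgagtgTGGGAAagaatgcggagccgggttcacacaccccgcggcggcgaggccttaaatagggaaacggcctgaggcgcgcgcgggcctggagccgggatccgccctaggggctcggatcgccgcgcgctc
NRARP: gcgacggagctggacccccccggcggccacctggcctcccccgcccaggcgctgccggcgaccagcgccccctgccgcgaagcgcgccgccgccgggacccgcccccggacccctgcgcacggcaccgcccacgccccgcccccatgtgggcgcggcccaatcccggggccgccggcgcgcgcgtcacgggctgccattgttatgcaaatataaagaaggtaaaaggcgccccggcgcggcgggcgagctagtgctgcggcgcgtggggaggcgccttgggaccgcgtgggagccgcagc
JAG1: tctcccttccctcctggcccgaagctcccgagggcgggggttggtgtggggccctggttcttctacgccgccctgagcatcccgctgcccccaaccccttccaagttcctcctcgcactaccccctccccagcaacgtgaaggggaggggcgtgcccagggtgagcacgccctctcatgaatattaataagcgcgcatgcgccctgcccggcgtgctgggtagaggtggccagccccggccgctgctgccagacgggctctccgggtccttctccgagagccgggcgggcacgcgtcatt
Promoters of 8 of the 10 members were read, whereas those of DLL1 and HEY1 were not, so nothing is said of their motifs. The HES1 promoter held 2 matches to TGGGAA, which begin 84 and 70 bases before the start site in the same orientation. The HES4 promoter held 1, which begins 76 bases before it. The promoters of NRARP, JAG1, JAG2, NOTCH1, NOTCH2 and NOTCH3 held none in this window on either strand. Of 35116 promoters of the same length, 24% held TGGGAA. HES proteins bind the N box CACNAG, which was searched on either strand. It was found 4 times in the HES1 promoter and 1 time each in those of NOTCH2, NOTCH3 and NRARP. The NOTCH1 promoter held 2 overlapping matches, the readings of 1 stretch (cactagtg) on its 2 strands. Of all promoters, 38% held at least 1 match. Only these letters were searched, so RBPJ sites of another form were not counted and the pairing of sites was not read. A match is a description of letters and not of a bound site.

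The depth was 30132396 to 69684675 counted read pairs, and levels are given as RPM, the count of a gene per 1000000 counted read pairs of its sample. AJUBA, the targeted gene, stood at 82.5 ± 1.26 RPM (SD, n = 2) in shScrambled, 50.1 ± 3.12 (n = 3) in shAjuba1 and 62.0 ± 5.93 (n = 3) in shAjuba2, and at 93.2 ± 6.34 in Control and 526 ± 56.1 in Ajuba OE (n = 3 each). With edgeR's quasi-likelihood test AJUBA changed by a log2 of -0.73 in the shAjuba1 line (adjusted p = 2.19e-05), stood at -0.46 in the shAjuba2 line (adjusted p = 0.0773) and rose by 2.56 with overexpression (adjusted p = 7.69e-05), so the knockdown passed the threshold of 0.05 in shAjuba1 and missed it in shAjuba2. There it passed when replicate 2 was left out (adjusted p = 4.81e-04) and under 4 of 7 other settings, with adjusted p from 0.0137 to 0.0911 over the 7. Replicate 2 of shAjuba2, Control and Ajuba OE stood apart from the other replicates of its line: mitochondrial genes took 21.2%, 18.5% and 21.2% of its counts, the highest share in each of these lines. Summed over each marker list, colon epithelium genes held 2960 to 7170 RPM over the 16 samples, fibroblast genes 5.76 to 26.8, endothelial genes 2.24 to 5.41 and leukocyte genes 2.18 to 6.82. The leukocyte marker PTPRC was at or near 0 (up to 0.0645 RPM), LYZ reached 4.16, and of the epithelial markers CDX1 was near 0 (up to 0.0837) and CDH1 at 3.92 to 36.2.

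Members differed widely in level. On the scale of RPM per kilobase of merged exons, the mean over all 16 samples was highest for HES1 at 12.3, followed by JAG2 at 7.59, NRARP at 7.57, NOTCH2 at 7.19, NOTCH1 at 4.97, JAG1 at 4.92 and HES4 at 2.54. DLL1 at 0.825, NOTCH3 at 0.207 and HEY1 at 0.0996 came last, HEY1 resting on 13 to 57 counts per sample. HES1 lay between 9.07 and 16.9 and JAG2 between 5.32 and 12.04 over samples, and the ranges of JAG2, NRARP, NOTCH2, NOTCH1 and JAG1 overlapped as well, so the order among these neighbours does not hold beyond their spread. Between lines JAG1 varied most, its highest line mean being 6.26 times its lowest, against 2.72 for NOTCH3, 2.29 for DLL1 and 1.41 for HEY1. In a test of any difference over the 6 lines, 7 of the 10 members passed, compared with 45.7% of all genes tested, and JAG2 (adjusted p = 0.240), HES4 (0.212) and HEY1 (0.739) did not.

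**Figure D1:**
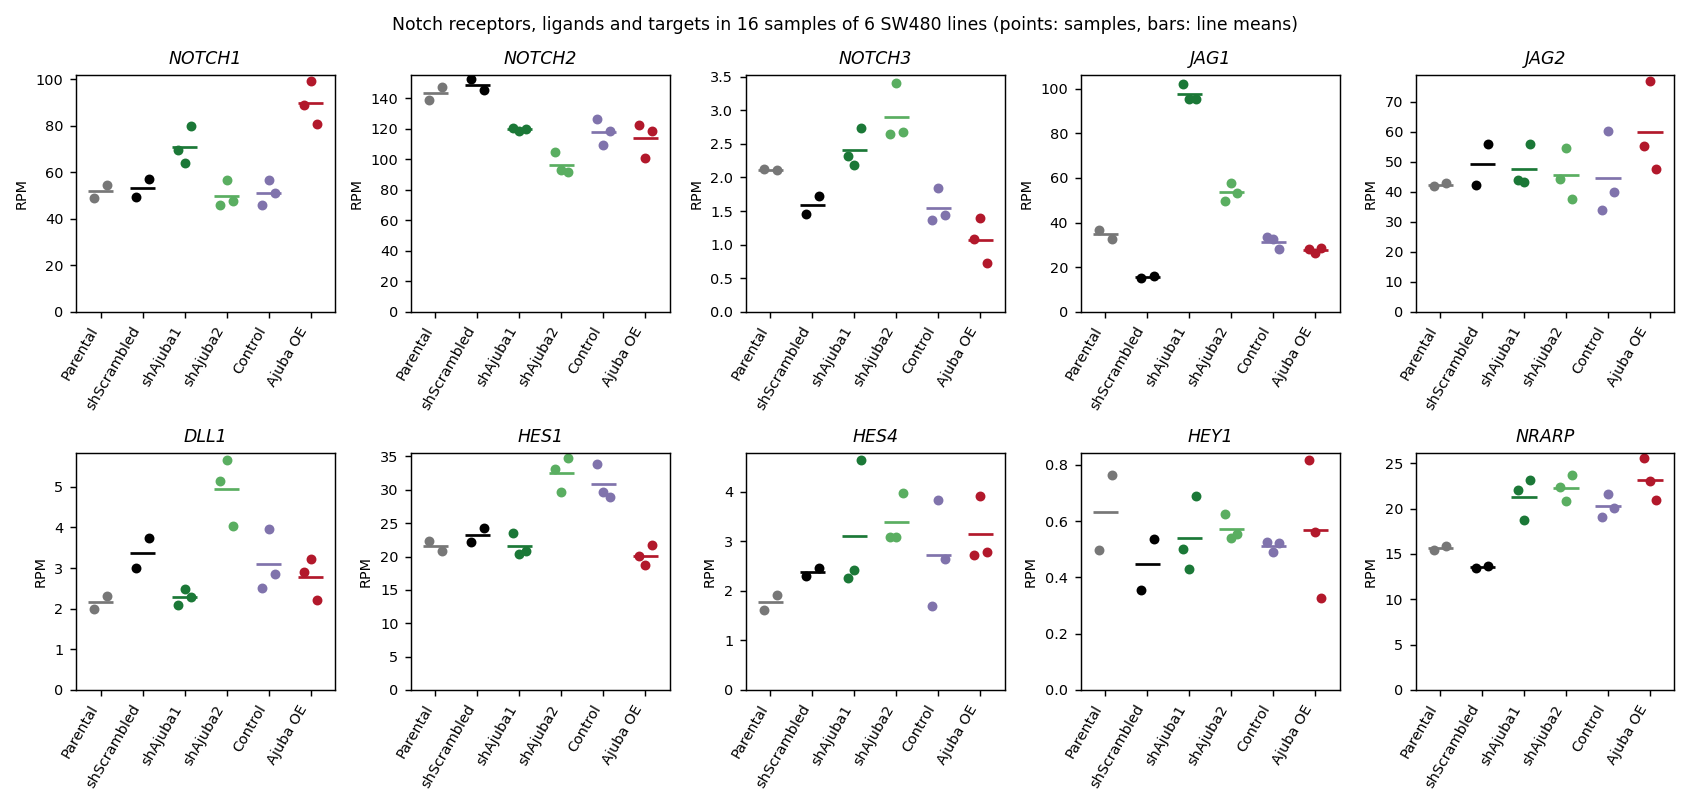
Level of each of the 10 members in RPM (linear vertical axes from 0) in the 16 samples, with samples as points and line means as bars along the 6 lines. JAG1 stands at 95.4 to 102 RPM in shAjuba1 and at 15.2 to 16 in shScrambled, and NOTCH1 is highest in Ajuba OE at 80.8 to 99.3.

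NOTCH1 (ENSG00000148400, chr9:136494433-136546048, minus strand) was highest with Ajuba overexpression. It stood at 49.0 and 54.5 RPM in Parental, 49.5 and 57.2 in shScrambled and 46.0, 56.8 and 50.9 in Control. The shAjuba1 samples had 69.4, 63.8 and 79.8, the shAjuba2 samples 45.9, 56.5 and 47.4, and the Ajuba OE samples 88.8, 99.3 and 80.8. The ranges of Ajuba OE and shAjuba1 lay apart from each other and above the other 4 lines, whose ranges overlapped. NOTCH2 (ENSG00000134250, chr1:119911553-120100779, minus strand) showed another order and was lowest in shAjuba2. It was at 139 and 147 RPM in Parental and 152 and 145 in shScrambled, 120.3, 119 and 119.8 in shAjuba1, and 104, 93.0 and 91.8 in shAjuba2, while Control with 126, 109 and 119 and Ajuba OE with 122, 100.5 and 119 could not be separated. NOTCH2NLA, a paralog that shares sequence with NOTCH2, held 9 to 36 counts per sample, whereas NOTCH2 held 3574 to 8524. NOTCH3 was low in all samples, with 29 to 151 counts, and lay between 2.19 and 3.40 RPM in the knockdown lines, 1.45 and 1.73 in shScrambled, 2.11 and 2.12 in Parental, and 0.729 and 1.84 in Control and Ajuba OE.

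JAG1 (ENSG00000101384, chr20:10637684-10673999, minus strand), a Jagged ligand, separated the lines most clearly. It was at 36.6 and 32.8 RPM in Parental, 15.2 and 16 in shScrambled, and 33.7, 32.5 and 28.1 in Control. Levels reached 102, 95.6 and 95.4 in the shAjuba1 line and 49.7, 57.9 and 53.4 in the shAjuba2 line, and Ajuba OE had 28.1, 26.3 and 28.6. Both knockdown lines lay above the other 4 lines, shAjuba1 lay above shAjuba2, and shScrambled lay below the rest, while Parental overlapped Control, and Control overlapped Ajuba OE. JAG2, the other Jagged ligand, was at 34.0 to 77.0 RPM, and the ranges of all neighbouring lines in its order overlapped. Its highest samples in shAjuba2, Control and Ajuba OE were replicate 2 in each case, at 54.7, 60.2 and 77.0 RPM. DLL1, a Delta ligand with 75 to 251 counts per sample, was at 2.99 and 3.74 RPM in shScrambled, 2.09 to 2.49 in shAjuba1 and 4.03 to 5.65 in shAjuba2, which lay above all other lines. Of its exons, 370 bases (9.7%) are shared with FAM120B on the opposite strand, and the libraries were stranded but the strand option of the counting is not given in the sources used here, so part of the DLL1 count is uncertain.

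HES1 (ENSG00000114315, chr3:194136148-194138732, plus strand), whose promoter carries the 2 TGGGAA matches shown above, fell into a higher and a lower set of lines. The higher set was shAjuba2 at 33.0, 29.7 and 34.7 RPM and Control at 33.9, 29.7 and 28.9. The lower set was Parental at 22.4 and 20.8, shScrambled at 22.2 and 24.3, shAjuba1 at 23.5, 20.4 and 20.8, and Ajuba OE at 20.02, 18.7 and 21.7. No sample of the lower set reached the higher set, and within each set neighbouring lines overlapped. NRARP (chr9:137299631-137302271, minus strand) was lowest in the unmodified cells and the line with the scrambled shRNA, at 15.4 and 15.8 RPM in Parental and 13.4 and 13.7 in shScrambled. It was at 22.04, 18.7 and 23.1 in shAjuba1, 22.4, 20.8 and 23.7 in shAjuba2, 19.1, 21.7 and 20.1 in Control, and 25.6, 23.0 and 20.9 in Ajuba OE, 4 lines with overlapping neighbours. HES4 was at 1.62 to 4.64 RPM (58 to 193 counts) and HEY1 at 0.327 to 0.818 RPM, and apart from HES4 in Parental, below shScrambled, no neighbouring lines separated for either.

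In shAjuba1, JAG1 rose 6.19-fold over shScrambled and NOTCH1, NOTCH3 and the feedback inhibitor NRARP rose less, while NOTCH2 and DLL1 fell. Of the 10 members 4 were higher and 2 lower at an adjusted p under 0.05, where 18.2% of all 21082 genes tested were higher and 20.2% lower (38.4% in all), so that 6 calls among 10 genes say little about the members as a group. The same 6 members had sample ranges that did not overlap, as did 60.1% of all genes. By edgeR's quasi-likelihood test the log2 fold change of JAG1 was 2.63 (SE 0.0946, adjusted p = 3.11e-09) and that of NRARP 0.64 (SE 0.110, adjusted p = 6.07e-04). Both calls held with each library left out, between 2.60 and 2.66 for JAG1 and between 0.59 and 0.72 for NRARP. NOTCH1 rose by 0.40 (SE 0.104, adjusted p = 0.00920), NOTCH2 fell by 0.33 (SE 0.0750, adjusted p = 0.00391), NOTCH3 rose by 0.58 (SE 0.178, adjusted p = 0.0216) and DLL1 fell by 0.59 (SE 0.162, adjusted p = 0.0124). The 3 receptors did not pass without replicate 1 of shScrambled (adjusted p = 0.131, 0.0810 and 0.141), nor did NOTCH3 without replicate 2 of that line (0.0543), and DLL1 did not pass without replicate 2 of shScrambled (0.168) or replicate 1 of shAjuba1 (0.0555). With DESeq2 the adjusted p was 0.0929 for NOTCH3 and 0.0619 for DLL1. JAG2 (-0.06), HES1 (-0.12), HES4 (0.35) and HEY1 (0.23) did not pass, and these 4 include 3 of the 4 targets. The median log2 fold change of the members was 0.29, against -0.01 for all genes.

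In shAjuba2, JAG1 rose 3.33-fold over shScrambled, NRARP rose and NOTCH2 fell. These were the 3 members called of 10, 2 higher and 1 lower, compared with 3.19% of all genes higher and 4.44% lower (7.63% in all). Members whose ranges did not overlap numbered 8, with 7 higher and 1 lower, beside 47.6% of all genes, only NOTCH1 and JAG2 overlapping. The log2 fold change was 1.73 for JAG1 (SE 0.138, adjusted p = 0.00105 by edgeR), 0.67 for NRARP (SE 0.125, adjusted p = 0.0218) and -0.67 for NOTCH2 (SE 0.118, adjusted p = 0.0171). JAG1 held with each library left out (1.66 to 1.81), whereas NOTCH2 and NRARP lost the call without replicate 1 of shScrambled (adjusted p = 0.235 and 0.266), without replicate 2 of shScrambled (0.195 and 0.252) and without replicate 1 of shAjuba2 (0.0723 and 0.0795). Of the 7 members not called, 4 had the larger changes, NOTCH3 at 0.81 (adjusted p = 0.0670), DLL1 at 0.50 (0.186), HES4 at 0.46 (0.190) and HES1 at 0.44 (0.0782). Without replicate 2 of shAjuba2, the library with the high mitochondrial share, NOTCH3 (adjusted p = 0.0243) and HES1 (0.00349) passed. NOTCH3 also passed under 5 of 7 other settings, DESeq2 (adjusted p = 0.0388) among them, and was at 0.40 (adjusted p = 0.205) against Parental. HES1 and DLL1 each passed under 2 of the 7 and HES4 under 1. The median of the members was 0.45, against -0.01 for all genes. Both knockdown comparisons use the same shScrambled samples, so their likeness is not independent.

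In Ajuba OE, NOTCH1 rose 1.83-fold over Control and HES1 fell to 0.683 of it, and these were the members called, 1 higher and 1 lower, beside 2.39% of all genes higher and 3.03% lower (5.43% in all). The same 2 members had ranges that did not overlap, as did 25.4% of all genes. By edgeR's test the log2 fold change of NOTCH1 was 0.87 (SE 0.124, adjusted p = 0.00735), and it missed the threshold only without replicate 3 of Control (adjusted p = 0.0569). HES1 fell by 0.55 (SE 0.110, adjusted p = 0.0306). That call was lost when any of the 6 libraries was left out singly, with adjusted p between 0.0541 and 0.127, although the change stayed between -0.61 and -0.47. It held without replicate 2 of both lines (adjusted p = 0.0242) and under 6 of 7 other settings, DESeq2 (adjusted p = 0.00950) among them. JAG1, the ligand with the largest change on knockdown, had a log2 fold change of -0.12 (SE 0.103, adjusted p = 0.611). JAG2 stood at 0.49 (SE 0.253, adjusted p = 0.360), and without replicate 2 of both lines it passed at 0.52 (adjusted p = 0.0237). NOTCH3 at -0.47 (adjusted p = 0.414), NRARP at 0.25 (0.247), and NOTCH2, DLL1, HES4 and HEY1 between -0.10 and 0.26 did not pass. The median of the members was 0.13, against -0.01 for all genes.

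**Figure D2:**
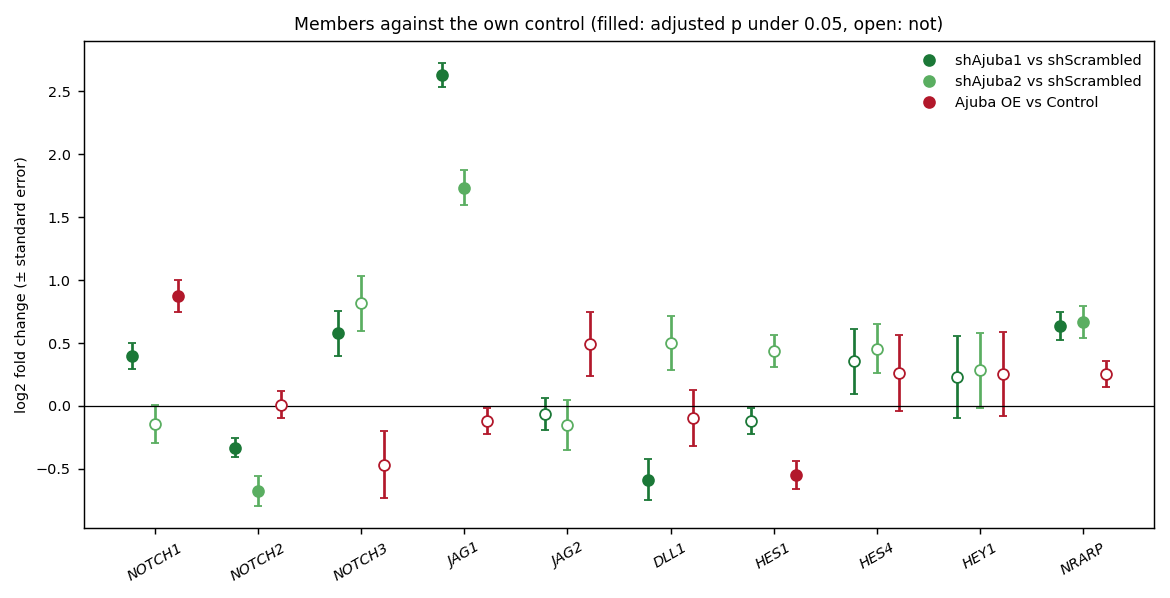
The log2 fold change of each member against its own control (vertical axis, bars ± standard error), for shAjuba1 and shAjuba2 against shScrambled and Ajuba OE against Control, with filled points at an adjusted p under 0.05. JAG1 reaches 2.63 and 1.73 in the knockdown lines and -0.12 in Ajuba OE, while NOTCH1 is raised in shAjuba1 (0.40) and in Ajuba OE (0.87).

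Set against each other directly, the knockdown lines differed in 5 of the 10 members, compared with 19.6% of all genes. NOTCH1, NOTCH2 and JAG1 were higher in shAjuba1 (9.47% of all genes were higher) and DLL1 and HES1 were lower (10.1% lower). These 5 were also the members without overlap, as were 39.7% of all genes. The log2 difference, shAjuba1 minus shAjuba2, was 0.91 for JAG1 (SE 0.111, adjusted p = 5.82e-04 by edgeR) and -1.07 for DLL1 (SE 0.180, adjusted p = 0.00328), and both held with each library left out. It was 0.55 for NOTCH1 (SE 0.131, adjusted p = 0.0163), 0.36 for NOTCH2 (SE 0.103, adjusted p = 0.0358) and -0.54 for HES1 (SE 0.116, adjusted p = 0.0105). NOTCH2 kept the call only where the library left out was replicate 2 of shAjuba2, NOTCH1 lost it without replicate 1 or 3 of shAjuba1 or replicate 1 of shAjuba2, and HES1 lost it without replicate 2 of shAjuba1. NRARP differed by -0.02 (SE 0.120, adjusted p = 0.927), a difference that these samples do not resolve. AJUBA itself differed by -0.26 (adjusted p = 0.141).

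The control lines were not alike in these genes. JAG1 was lower in shScrambled than in Parental by a log2 difference of -1.15 (SE 0.0922, adjusted p = 1.20e-09 by edgeR), and DLL1 was higher by 0.64 (SE 0.187, adjusted p = 0.0116), the latter call being lost without replicate 2 of shScrambled (adjusted p = 0.214) and with DESeq2 (adjusted p = 0.0921). These 2 of 10 members compare with 30.7% of all genes, and 5 members did not overlap, as did 65.2% of all genes. Between Control and Parental 0 members passed with edgeR, beside 0.37% of all genes (0.0508% higher and 0.319% lower). By unadjusted p under 0.05 4 members passed there, DESeq2 also called 0, and 5 did not overlap, as did 42.4% of all genes. Among the targets the log2 difference was 0.64 for HES4 (adjusted p = 0.314), 0.53 for HES1 (0.119) and 0.39 for NRARP (0.155), with the higher mean in Control each time.

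The choice of control changed several results. Against Parental in place of shScrambled, the log2 fold change of JAG1 was 1.47 (adjusted p = 6.20e-07) in shAjuba1 and 0.57 (adjusted p = 0.0440) in shAjuba2, so the direction held and the size shrank. NOTCH1 in shAjuba1 (0.42, adjusted p = 0.00661) and NOTCH2 in both knockdown lines (-0.29 and -0.63, adjusted p = 0.00868 and 0.0271) kept their calls. NOTCH3 (0.16, adjusted p = 0.453) and DLL1 (0.04, adjusted p = 0.859) lost theirs in shAjuba1, NRARP kept its call (0.42, adjusted p = 0.0102) and HES4 gained one (0.76, adjusted p = 0.0493). In shAjuba2 against Parental, DLL1 (1.13, adjusted p = 0.0278), HES1 (0.53, adjusted p = 0.0471) and HES4 (0.87, adjusted p = 0.0492) passed and NRARP (0.45, adjusted p = 0.0643) did not. In Ajuba OE against Parental, NOTCH1 held at 0.84 (adjusted p = 0.00770) and NRARP passed at 0.62 (adjusted p = 0.0207). HES1, however, had a log2 fold change of -0.05 (adjusted p = 0.869) there, so that its fall in Ajuba OE is a fall from the level of the Control line and not from that of Parental.

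**Figure D3:**
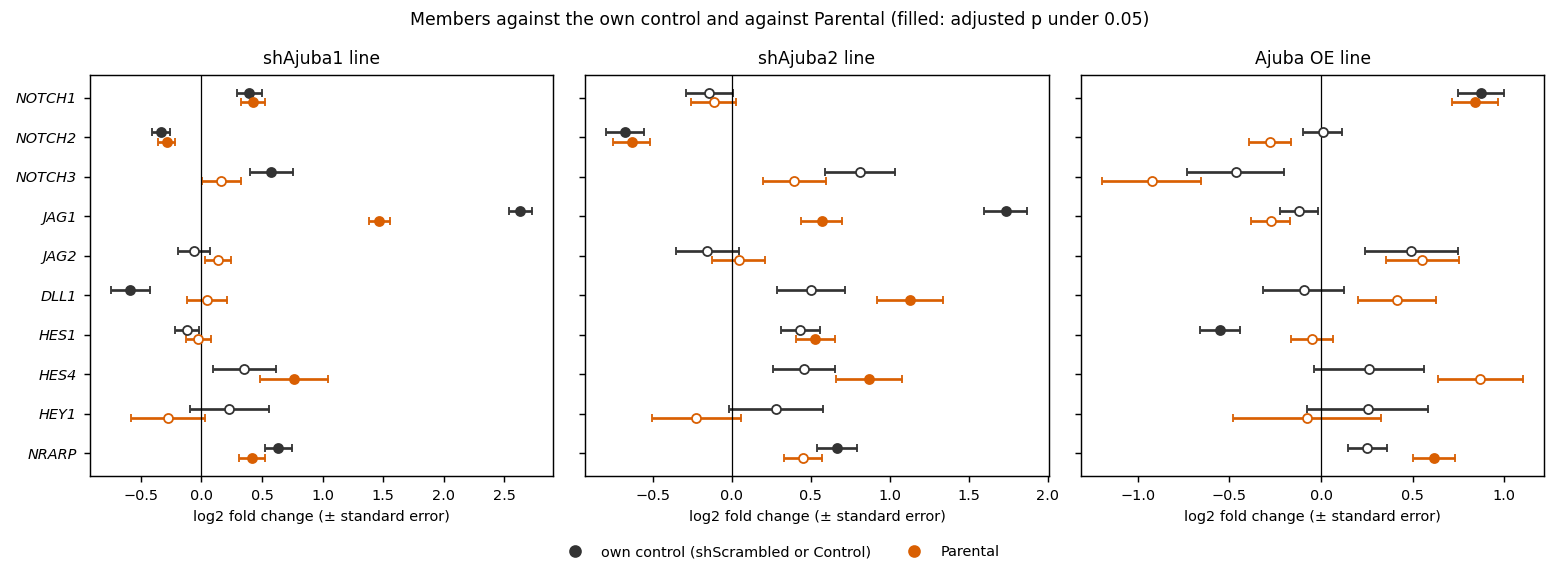
The log2 fold change (horizontal axis, bars ± standard error) of each member in shAjuba1, shAjuba2 and Ajuba OE against the own control (dark) and against Parental (orange), with filled points at an adjusted p under 0.05. JAG1 in shAjuba1 moves from 2.63 to 1.47, and HES1 in Ajuba OE moves from -0.55 to -0.05.

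Ratios within a sample show how the makeup of the receptors and ligands differed, as a description without a test. On RPM per kilobase, the ratio of JAG1 to JAG2 was 0.564 ± 0.0525 in Parental (SD, n = 2), 0.222 ± 0.0358 in shScrambled (n = 2) and 0.512 ± 0.157 in Control (n = 3). It was 1.43 ± 0.225 in shAjuba1, with samples from 1.18 to 1.60, 0.825 ± 0.132 in shAjuba2 and 0.333 ± 0.0906 in Ajuba OE (n = 3 each). On this scale JAG1 exceeded JAG2 in shAjuba1 alone. That depends on the length used, merged exons of 9298 bases for JAG1 and 6396 for JAG2, against longest transcripts of 5940 and 5773. With no length applied, mean JAG1 also exceeded mean JAG2 in shAjuba2, at 53.7 against 45.6 RPM. The ratio of NOTCH1 to NOTCH2 was 0.483 ± 0.0168 for Parental and 0.480 ± 0.0654 for shScrambled. It reached 0.793 ± 0.0877 in the shAjuba1 line, 0.696 ± 0.113 in the shAjuba2 line and 0.585 ± 0.104 in Control. In Ajuba OE it was 1.07 ± 0.222 with samples from 0.910 to 1.32, near equal levels of both receptors.

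**Figure D4:**
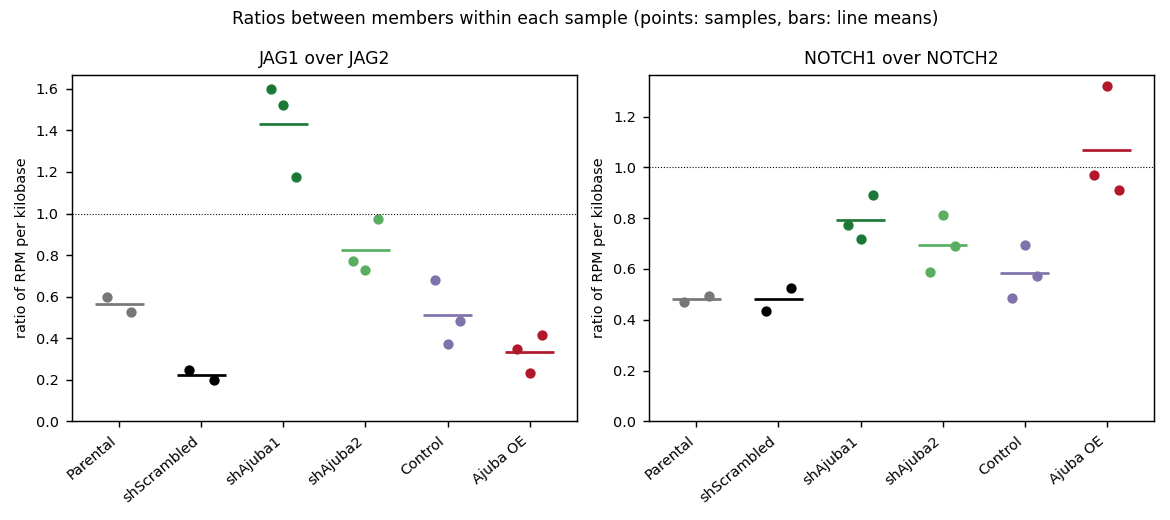
Ratio of RPM per kilobase (vertical axis from 0, dotted line at 1) of JAG1 to JAG2 and of NOTCH1 to NOTCH2 in each sample (points) with line means (bars). All shAjuba1 samples lie above 1 for the ligands, at 1.18 to 1.60, and the Ajuba OE samples lie highest for the receptors, at 0.910 to 1.32.

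Around the members, 68 further genes of the pathway in 7 lists by role were read from the same fits. In shAjuba1, 59 were tested, of which 11 were higher, 16 lower and 32 not called, with a median log2 fold change of 0.00 against -0.01 for all genes, and 38.4% of all genes were called. The nuclear complex and corepressor list moved in both directions, with 4 higher and 6 lower of 20. TLE1, a Groucho corepressor that HES proteins recruit, fell from 14.9 RPM in shScrambled to 3.68 (log2 -2.03, SE 0.119, adjusted p = 8.61e-08 by edgeR), and its relative TLE4 fell by 1.31 (adjusted p = 8.90e-07). The Mastermind coactivator MAML3 fell by 1.63 (adjusted p = 3.25e-07), and RBPJ itself, whose reads pseudogene copies could share, fell by 0.42 (adjusted p = 0.00379). Among 5 tested HES and HEY genes outside the members, HES7 fell by 2.01 (adjusted p = 3.79e-07) and HEY2 rose by 1.06 (adjusted p = 7.94e-05). The level of shScrambled enters these values, since HES7 stood at 10.4 RPM there and 4.54 in Parental, and HEY2 at 2.68 and 4.94, beside 2.64 and 5.67 in shAjuba1. Against Parental HES7 was at -0.82 (adjusted p = 0.00109), MAML3 at -0.74 (adjusted p = 8.04e-04), TLE4 at -0.86 (adjusted p = 8.28e-05) and DTX1 at -0.90 (adjusted p = 0.0244), smaller changes with the same direction and call. RBPJ was at 79.9 RPM in shScrambled, 67.5 in Parental and 60.4 in shAjuba1. Of the 4 Deltex ubiquitin ligase genes in the lists, DTX1 fell by 1.79 (adjusted p = 1.56e-04) and DTX4 rose by 1.27 (adjusted p = 1.16e-06). DTX2 at -0.05 (0.717) and DTX3 at 0.11 (0.451) did not pass. ADAM10, a protease that cuts Notch receptors, fell by 0.50 (adjusted p = 0.00189).

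Of 9 secretory lineage genes that Notch signalling is known to hold low in the gut, 4 were tested in shAjuba1, and 1 was higher and 3 lower, beside 18.2% and 20.2% of all genes. GFI1, a transcription factor of secretory cells, fell by 1.64 (adjusted p = 1.37e-06 by edgeR), CHGA, a marker of enteroendocrine cells, fell by 0.75 (adjusted p = 0.00183), and MUC2, the main mucin of goblet cells, rose by 1.44 from a mean of 0.328 to 0.945 RPM (adjusted p = 0.00301). TFF3, a goblet cell peptide, fell by 1.59 (adjusted p = 0.0164) from a mean of 0.355 to 0.120 RPM, but Parental cells had 0.0623 RPM, below shAjuba1, so the direction turns with the control. It is a call that was lost without either shScrambled library, without replicate 1 of shAjuba1 and with DESeq2 (adjusted p = 0.138). The other 5, ATOH1, SPDEF, NEUROG3, NEUROD1 and INSM1, did not pass the filter on low counts.

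In shAjuba2, 8 of 59 tested pathway genes were called, 2 higher and 6 lower, against 7.63% of all genes, and the median was -0.07 against -0.01. HEY2 rose by 1.16 (adjusted p = 0.0129 by edgeR) and FBXW7, a ubiquitin ligase subunit that targets the Notch intracellular domain, rose by 0.64 (adjusted p = 0.0302). DTX1 fell by 2.11 (adjusted p = 0.0104), CHGA by 1.21 (adjusted p = 0.00764), NEURL1B, a ligase that promotes ligand uptake, by 0.84 (adjusted p = 0.0177), TLE1 by 0.83 (adjusted p = 0.0190) and TLE4 by 0.67 (adjusted p = 0.0223). TFF3 had 0 counts in the 3 shAjuba2 samples and 15 in each shScrambled sample, and against a floor of 3 counts per library it was at least 5.25-fold lower than shScrambled, while Parental cells, at 0.0623 RPM, lay under that floor of 0.0676 RPM, so no fold is given against them. The count of 8 fell to 2 without replicate 1 of shAjuba2 and rose to 19 without replicate 2 of shAjuba2. Calls over all genes moved likewise, from 1713 to 492 of 21993 and to 4983 of 21969. Leaving out either shScrambled library leaves 1 sample in that line, so no count is given here. Against Parental the count was 4, with HEY2 at 0.27, TLE1 at -0.33 and TLE4 at -0.21, none of which passed. DTX1 was low, at a mean of 0.398 RPM in shAjuba2 and 1.65 in shScrambled. Over 7 other settings its log2 fold change lay between -2.12 and -1.23, and 1 of them lost the call (adjusted p = 0.0597).

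In Ajuba OE, 9 of 58 tested pathway genes were called, 2 higher and 7 lower, against 5.43% of all genes, and the median was 0.04 against -0.01. Corepressors and coactivators made up 4 of the 7 that fell, with TLE1 falling from 9.06 to 1.78 RPM (log2 -2.28, SE 0.146, adjusted p = 2.53e-04 by edgeR), TLE2 by 1.50 (adjusted p = 0.0231), MAML2 by 0.68 (adjusted p = 0.0109) and the acetyltransferase gene KAT2B by 0.58 (adjusted p = 0.0213). TLE3, the most abundant TLE gene with 191 RPM in Control and 279 in Ajuba OE, rose by 0.61 (adjusted p = 0.00696). DTX4 fell by 1.21 (adjusted p = 0.00157), HES2 by 1.05 (adjusted p = 0.00981) and NEURL1B by 0.76 (adjusted p = 0.0185), and HEY2 rose by 0.49 (adjusted p = 0.0487). TLE1 and DTX4 held with each library left out, and the count was 2, 4 and 5 without replicate 3 of Control, replicate 1 of Ajuba OE and replicate 3 of Ajuba OE. Calls over all genes fell likewise, from 1147 to 412, 547 and 506. TLE1 was thus lower than the own control in all 3 comparisons, and against Parental it was at -1.54 (adjusted p = 8.40e-06) in shAjuba1 and -2.49 (adjusted p = 2.52e-04) in Ajuba OE.

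**Figure D5:**
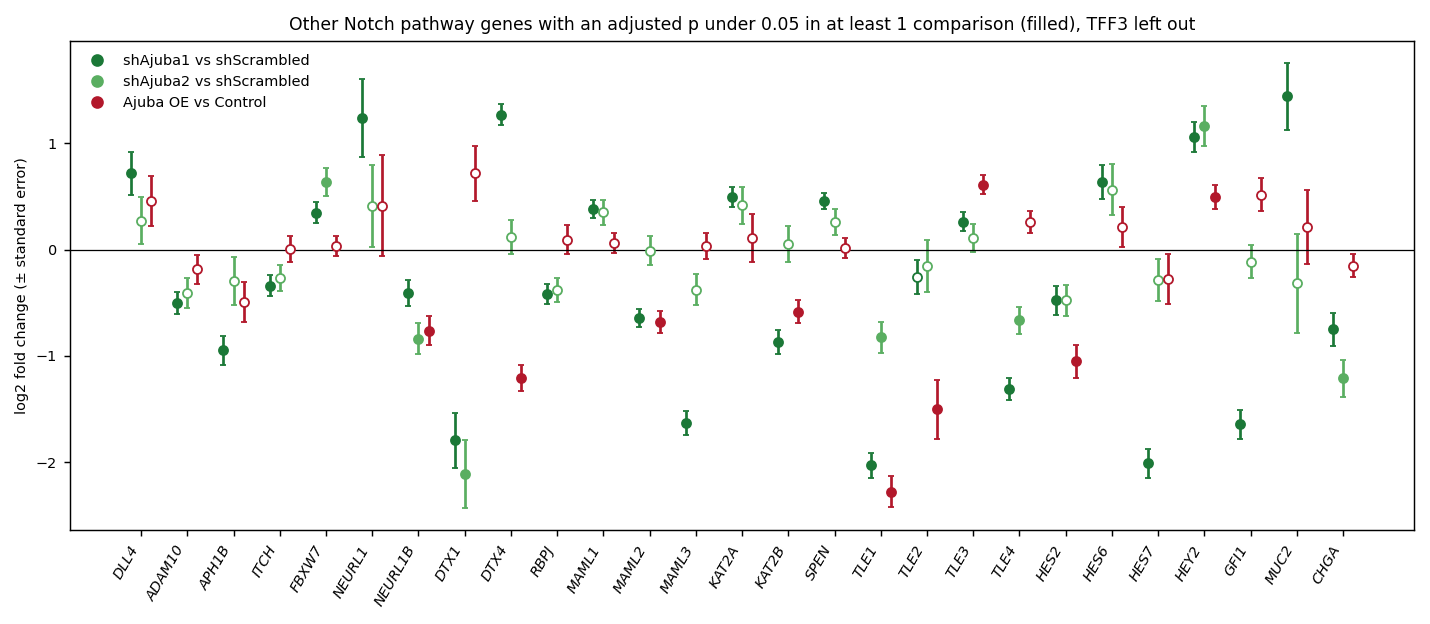
The log2 fold change (vertical axis, bars ± standard error) of the 27 pathway genes outside the members that had an adjusted p under 0.05 in at least 1 of the 3 comparisons with the own control, TFF3 left out, with filled points where the threshold was passed. TLE1 lies below 0 in all 3 comparisons, at -2.03, -0.83 and -2.28, while DTX4 lies at 1.27 in shAjuba1 and -1.21 in Ajuba OE.

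For the receptor, the ligand and the target with the smallest adjusted p over the 6 lines, genes among those with the most similar profile of log2 CPM (counts per 1000000) over the 16 samples were read out as a description. For NOTCH1 they were ZFPM1 (r = 0.943) and SH3BP1 (0.933), for JAG1 they were LONRF3 (0.966), LINC01547 (0.953) and FSCN1 (0.952), and for NRARP they were LHX1 (0.924), LINC01315 (0.914) and U2AF2 (0.911). The 16 points share lines and libraries, so each r mostly describes the differences between the 6 lines.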

How the data were processed

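RNA-seq of 16 samples from 6 SW480 lines was used. The authors deposited a table of raw counts, read pairs for each gene, from stranded mRNA libraries read paired-end, which they aligned to hg38 with HISAT2 and counted with featureCounts. The annotation release, the strand option and the versions are not given in the sources used here. Samples were grouped by line as their labels give them.

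The tests ran in R 4.3.3 with DESeq2 1.42.0, limma 3.58.1 and edgeR 4.0.16. Python 3.11.15 with matplotlib 3.10.9 and pandas 2.3.3 drew the plots. Each comparison was fitted on its 2 lines over all genes kept by filterByExpr, with TMM normalization, the two-sided quasi-likelihood test of edgeR and Benjamini-Hochberg adjustment over all genes tested, at a threshold of 0.05. The authors' methods name DESeq2, which was used as an alternative. RPM is the count divided by the sample total and scaled to 1000000, and log2 CPM for likeness used a prior count of 2. The scripts were tested on simulated data.

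Of the 66023 genes, 56434 were found in GENCODE by identifier, with 99.8% of all counts. No column of the table was left without a sample. Promoter sequences came from RefSeq (GRCh38.p14), and motifs were searched on both strands.

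The members, the pathway lists and the tests were chosen with earlier results of these data known. Named in the text are the 10 members, AJUBA, up to 8 called list genes per comparison with the largest absolute log2 fold change, and list genes needed to account for a role, which were chosen after their values were seen where they fall outside the first 8. Genes alike were named for 1 receptor, ligand and target each, and some genes under these rules are not reported here. Alternatives were library size alone, size factors of DESeq2, DESeq2, every gene with at least 1 count, 1 fit on all 16 samples, the replicate number as a block, Parental as the control, the length of the longest transcript, and leaving out each library. Total counts of 30132396 to 69684675 per sample limit the low members, HEY1, NOTCH3, DLL1 and HES4. The sample sizes of 2 or 3 limit the rest.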

Additional observations from a re-analysis of the deposited data

Results flagged for a closer look

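The 2 knockdown lines share their target and their control, so a difference between them was tested directly with edgeR's quasi-likelihood test. It was read for the 10 members and, for each knockdown line, the 8 pathway genes with the largest called change. Of these, 11 genes differed (log2 difference, shAjuba1 minus shAjuba2), beside 19.6% of all genes. The pathway genes were picked by their change in these same samples, which favours a difference, so their number cannot be compared with that share. Among the members these were JAG1 (0.91, adjusted p = 5.82e-04), NOTCH1 (0.55, adjusted p = 0.0163) and NOTCH2 (0.36, adjusted p = 0.0358), higher in shAjuba1, and DLL1 (-1.07, adjusted p = 0.00328) and HES1 (-0.54, adjusted p = 0.0105), lower in it. Among the other pathway genes MUC2 was higher in shAjuba1 (1.79, adjusted p = 0.00361), and lower in it were HES7 (-1.70, adjusted p = 2.61e-04), GFI1 (-1.51, adjusted p = 1.55e-04), MAML3 (-1.24, adjusted p = 3.65e-04), TLE1 (-1.19, adjusted p = 8.16e-04) and TLE4 (-0.63, adjusted p = 0.00684). Among those picked in shAjuba2, CHGA (adjusted p = 0.0963), HEY2 (0.726), NEURL1B (0.0691) and FBXW7 (0.132) did not pass. DTX1, picked in both lines, did not pass either (0.35, adjusted p = 0.508). TFF3, also picked in both, was not tested in this comparison. Outside the picked genes, DTX4 was higher in shAjuba1 (1.17, adjusted p = 3.90e-04). The size of the AJUBA knockdown differed by -0.26 between these lines (adjusted p = 0.141), and its part in these differences was not tested. Each shRNA is represented by 1 line, so the shRNA and the line cannot be told apart.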

How the results depend on the processing

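Of the tests of single genes, 544 kept their direction and their side of the threshold under a change of setting, 19 lost and 20 gained a call, and 10 changed sign. With 1 library left out the numbers were 384, 69, 7 and 28. No alternative scaling moved the median of all genes by over 0.1 (log2). The cause of each change below was not tested.

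Pairing by replicate number was weak on average and uneven. Deviations from the line means of same-numbered samples had a mean correlation of -0.0061, 0.13 and 0.19 in shAjuba1, shAjuba2 and Ajuba OE with their controls, -0.0044 between the knockdown lines, -0.057 between shScrambled and Parental and -0.11 between Control and Parental. Replicate 2 alone reached 0.502 in Ajuba OE with Control, where replicates 1 and 3 had 0.102 and -0.0475. In shAjuba2 with shScrambled replicate 2 had 0.188 and replicate 1 had 0.0682. In Ajuba OE with Control, 2 of 6 samples correlated best with their own number, and between the knockdown lines 1 of 6. With the replicate number as a block, members called were 5 in shAjuba2, 4 in Ajuba OE and 3 between the knockdown lines, pathway genes called were 15 in shAjuba2 and 18 in Ajuba OE, and HES4 in shAjuba1 was at -0.032. Calls over all genes rose as well, from 1713 to 5377 of 22446 in shAjuba2 and from 1147 to 5140 of 21140 in Ajuba OE. Between the knockdown lines they fell from 4232 to 2937 of 21600.

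With Parental as the control, 5 members and 4 pathway genes were called in shAjuba2, beside 1800 of all 22111 genes tested. In shAjuba1 JAG2 was then at 0.14, DLL1 at 0.043 and HEY1 at -0.28, in shAjuba2 JAG2 was at 0.045 and HEY1 at -0.22, and in Ajuba OE NOTCH2 was at -0.28, DLL1 at 0.42 and HEY1 at -0.078. Library size alone put NOTCH2 in Ajuba OE at -0.052. A single fit on all 16 samples called 5 members in shAjuba2 and 1 each in shScrambled and in Control against Parental, DESeq2 called 1 in shScrambled against Parental, and every gene with at least 1 count gave 1 in Control against Parental (HES1). Calls over all genes were 3672, 1696 and 530 of 23597 in the single fit, 4550 of 17130 with DESeq2 and 1947 of 40477 in the last. With the longest transcript as the length, 5 of the 10 members kept their rank.

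Without each library in turn, members called ranged from 0 to 3 in Ajuba OE and from 3 to 5 between the knockdown lines. Pathway genes called ranged from 2 to 8 in Ajuba OE. The fit without replicate 2 of both lines is included for Ajuba OE. Calls over all genes moved as well. They ranged from 412 to 1701 in Ajuba OE (1147 with all libraries) and from 2177 to 5961 between the knockdown lines (4232 with all libraries). The other comparisons include fits with 1 sample left in shScrambled or Parental, so no counts are given for them. Log2 fold changes that changed sign were JAG2 (-0.23 to 0.15) and HES4 (-0.042 to 0.56) in shAjuba1, JAG2 in shAjuba2 (-0.33 to 0.058), and NOTCH2 (-0.044 to 0.082), DLL1 (-0.22 to 0.12) and HEY1 (-0.089 to 0.51) in Ajuba OE. Between the knockdown lines they were HES4 (-0.48 to 0.12), HEY1 (-0.22 to 0.085), NRARP (-0.072 to 0.061) and JAG2 (-0.019 to 0.27). They were NOTCH1 (-0.072 to 0.12), NOTCH2 (-8.72e-04 to 0.10) and JAG2 (-7.55e-03 to 0.38) in shScrambled against Parental, and NOTCH1 (-0.12 to 0.076), HEY1 (-0.60 to 0.049), JAG2 (-0.20 to 0.25) and AJUBA (-0.012 to 0.083) in Control against Parental.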

Other observations

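Among ligand and receptor genes outside the members, NOTCH4 and DLL3 were tested in all 3 comparisons with the own control and did not pass in any. The log2 fold change of NOTCH4 was -0.18 and 0.02 in the knockdown lines shAjuba1 and shAjuba2 and 0.40 with overexpression (adjusted p = 0.466, 0.959 and 0.172 by edgeR), from levels of 2.59 to 3.26 RPM per line. That of DLL3 was 0.17, -0.10 and 0.31 (adjusted p = 0.492, 0.853 and 0.430). DLL4, the other Delta ligand, rose by 0.72 in shAjuba1 (adjusted p = 0.0132), from 0.892 to 1.50 RPM. LFNG, whose product adds sugars to Notch receptors and so shifts their response between Delta and Jagged ligands, was higher in shAjuba1 than in shAjuba2 by 0.60 (adjusted p = 0.0151 by edgeR), at 18.7 against 12.7 RPM. Its relatives MFNG and RFNG went in opposite directions there. MFNG was higher by 0.75 (adjusted p = 0.0480), with overlapping sample ranges at a mean of 2.35 against 1.43 RPM. RFNG, the most abundant, was lower by 0.47 (adjusted p = 0.0482), at 30.3 against 43.4 RPM. GPS1 on the opposite strand shares 21.6% of the RFNG exons.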
